A study of Mus musculus with 2 samples.

Results

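Notch receptors, ligands and targets were followed through the mononuclear cells of mouse skeletal muscle. The set was a named list of 10 genes out of 27998 in the count tables, with 4 receptors (Notch1, Notch2, Notch3 and Notch4), 3 ligands (Dll1, Dll4 and Jag1) and 3 target genes (Hes1, Hey1 and Heyl). The genes were listed by name and not by any measured value. All 10 were present in the tables, each with 1 row.

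Notch signalling passes between cells that touch. A membrane-bound ligand of the Delta-like or Jagged family on one cell binds a Notch receptor on its neighbour, the receptor is cleaved by ADAM10 and then by gamma-secretase, and the freed intracellular part joins RBPJ and Mastermind proteins on DNA to switch on repressors of the HES and HEY families. In muscle the pathway is best known for keeping satellite cells, the stem cells of the fibre, quiescent. In vessels it is known for arterial identity of endothelial cells and for differentiation of the mural cells around them, where NOTCH3 is the receptor with the best known role.

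Single-cell transcriptomes were measured in 1 quadriceps library and 1 diaphragm library, made from C57BL/6J mice that had received no treatment named in the labels. The labels give 10 mice for the experiment and say that muscles of several animals were combined within a tissue, but they give neither age nor sex. Each muscle was digested with collagenase B and dispase II, the cells were taken from a Lympholyte-M interface, and viable cells were sorted on light scatter alone, so muscle fibres and cells lost to digestion were not sampled. With 1 library per tissue, the tissue, the pool of animals and the library cannot be told apart, and no p-value is given.

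The unit of measurement was the unique molecular identifier (UMI), which counts a captured transcript once. Barcodes were assigned to 5 classes from raw marker UMIs, none of which was a Notch pathway gene, and no limit on mitochondrial UMIs was applied. Quadriceps gave 186 satellite-like, 1162 smooth muscle-like, 54 endothelial-like and 487 immune-like cells and 2466 cells like fibro-adipogenic progenitors (FAPs). Diaphragm gave 18 satellite-like, 45 smooth muscle-like, 9 endothelial-like, 145 immune-like and 2162 FAP-like cells. For each class the UMIs of a gene were added up and expressed per 1000000 UMIs of that class (CPM), with an exact Poisson 95% interval. These intervals cover counting error only and carry no information on variation between animals. A sum of 0 was read against the level that 3 counts would give. Levels are compared between classes for the same gene and never between genes.

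Depth differed between the classes. The 2 libraries held 50854519 and 28545242 UMIs, and the class sums ran from 26675731 UMIs in diaphragm FAP-like cells down to 30073 UMIs in the 9 endothelial-like cells of diaphragm, where 3 counts correspond to 99.8 CPM. The defining markers followed the classes, with Pax7 at 397 CPM in quadriceps satellite-like cells and at most 0.0390 CPM in the other 4 classes of that library. In smooth muscle-like cells of quadriceps Myh11 reached 6273 CPM. A list of 5 pericyte genes summed to 308 CPM there and 143 CPM in FAP-like cells. Cspg4 was at 275 CPM and Higd1b at 24.2 CPM in smooth muscle-like cells, their highest class. Vtn went the other way, at 4.17 CPM there and 102 CPM in FAP-like cells. Kcnj8 was at 2.45 CPM in smooth muscle-like and 53.3 CPM in endothelial-like cells. Abcc9 was at 2.08 CPM in smooth muscle-like and 3.67 CPM in FAP-like cells. The endothelial-like cells of both tissues carried genes of lymphatic endothelium, with Mmrn1 at 2519 CPM in quadriceps and 2427 CPM in diaphragm. The libraries shared 5 barcode sequences.

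Of the 10 members, 7 had an entry in the RefSeq promoter table on GRCm38.p6. The 250 bases before the start site are shown for Notch3, Notch4 and Dll4, because their levels in quadriceps were concentrated in 1 or 2 classes, Notch3 in smooth muscle-like and satellite-like cells and Notch4 and Dll4 in endothelial-like cells. The windows lie at chr17:32166891-32167140 on the minus strand for Notch3, at chr17:34564045-34564294 on the plus strand for Notch4 and at chr2:119325534-119325783 on the plus strand for Dll4. Capitals mark matches to AGGAAG on either strand, the letters of a common core of ETS factor sites.
Notch3: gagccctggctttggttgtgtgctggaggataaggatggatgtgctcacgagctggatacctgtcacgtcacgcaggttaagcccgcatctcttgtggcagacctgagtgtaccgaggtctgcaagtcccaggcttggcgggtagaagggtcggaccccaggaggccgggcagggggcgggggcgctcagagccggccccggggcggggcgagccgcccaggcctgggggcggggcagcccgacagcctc
Notch4: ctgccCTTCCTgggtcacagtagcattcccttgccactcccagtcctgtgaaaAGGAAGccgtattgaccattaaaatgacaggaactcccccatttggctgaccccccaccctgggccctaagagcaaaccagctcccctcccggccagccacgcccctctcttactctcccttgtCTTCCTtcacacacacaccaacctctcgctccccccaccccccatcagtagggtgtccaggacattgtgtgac
Dll4: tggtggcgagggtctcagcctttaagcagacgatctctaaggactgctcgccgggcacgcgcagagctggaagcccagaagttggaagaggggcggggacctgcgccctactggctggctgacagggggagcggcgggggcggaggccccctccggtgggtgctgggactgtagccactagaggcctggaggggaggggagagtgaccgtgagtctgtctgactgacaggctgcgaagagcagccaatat
Notch4 held 3 such matches, 1 on the strand of the gene and 2 on the opposite strand, and none overlapped another. AGGAAG or its reverse was present in 29.5% of the 32851 windows of this length in the table, so a match is common. The RBPJ core TGGGAA and the E-box CACGTG, the letters bound by RBPJ and by HES and HEY proteins among others, were searched on both strands and had no match in the printed windows, against 21.6% and 6.02% of all windows. Hes1, Hey1 and Heyl had no entry.

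The quadriceps library gave the deepest view of the set. Against FAP-like cells, the largest class in both libraries, a gene was counted as higher or lower when it differed by at least 2-fold on CPM + 1 and had at least 20 UMIs over both sums. Satellite-like cells had 6 members higher (Notch1, Notch3, Dll1, Hes1, Hey1 and Heyl) and 0 lower among the 8 with enough UMIs, where 10.4% of all genes tested were higher and 22.1% were lower. Smooth muscle-like cells had 5 higher (Notch1, Notch3, Jag1, Hes1 and Heyl) and 0 lower of 8, against 11.2% and 28.6% of all genes. Endothelial-like cells had 7 higher (Notch1, Notch4, Dll1, Dll4, Jag1, Hes1 and Hey1) and 1 lower (Notch2) of 10, against 18% and 30.2%. Immune-like cells had 1 higher (Notch1) and 3 lower (Jag1, Hey1 and Heyl) of 7, against 14.5% and 32.6%. A member low in both classes could not pass the minimum of 20 UMIs, so these counts describe the members measured well enough and not the whole set. Some members passed it only through the class where they were high, and could be counted only as higher. In endothelial-like cells these were Dll4 (37 UMIs, 1 in FAP-like cells), Dll1 (37 and 6) and Notch4 (23 and 15). In satellite-like cells it was Dll1 (14 and 6). With a pseudocount of 5 CPM the immune-like log2 folds of Notch1, Hey1 and Heyl were 0.87, -0.71 and -0.84, and that of Heyl was -0.55 with classes from clusters. Under a limit of 5% mitochondrial UMIs the log2 fold of Notch2 in endothelial-like cells was -0.60.

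**Figure D1:**
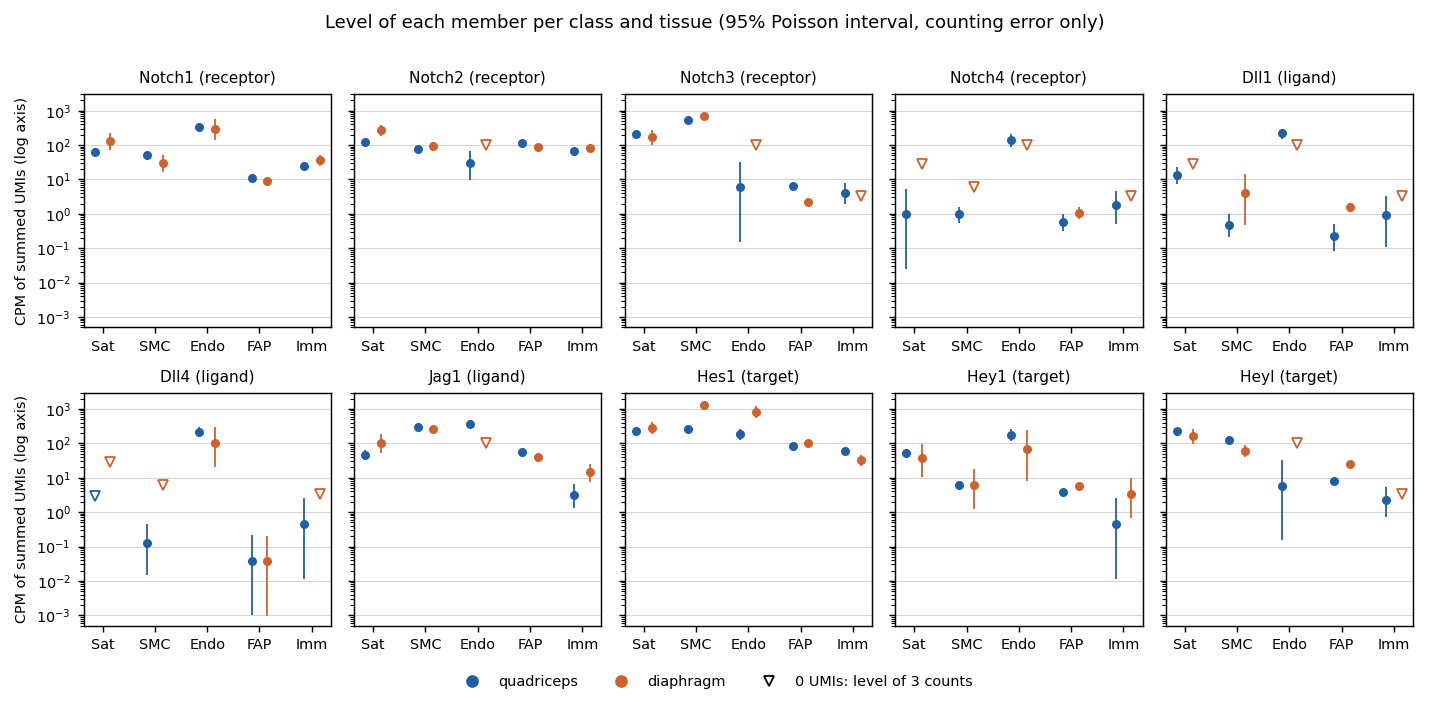
Level of each of the 10 members in satellite-like (Sat), smooth muscle-like (SMC), endothelial-like (Endo), FAP-like (FAP) and immune-like (Imm) cells, as CPM of summed UMIs on a log axis. Points are class sums of 1 library each, bars are 95% Poisson intervals, and open triangles stand at the level of 3 counts where no UMI was found. Notch3 stood at 531 and 688 CPM in the smooth muscle-like cells of the 2 tissues, and in quadriceps Dll4 was above 1 CPM in endothelial-like cells alone.

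Notch1, a receptor used by satellite cells and by endothelium (chr2:26457903-26516663, GRCm38), was highest in endothelial-like cells. Its quadriceps levels were 332 CPM (95% interval 251 to 431, 56 UMIs) in endothelial-like, 63.7 CPM in satellite-like, 50.5 CPM in smooth muscle-like, 24.7 CPM in immune-like and 11.2 CPM in FAP-like cells. In diaphragm the values in the same order were 299, 133, 30.4, 37.0 and 8.85 CPM. FAP-like cells were thus last in both tissues, and the intervals of the satellite-like and smooth muscle-like sums overlapped in quadriceps. The diaphragm endothelial-like level rested on 9 UMIs, and its interval (137 to 568) overlapped the satellite-like one (72.9 to 224). Without the cell that held the most Notch1 UMIs it was 214 CPM. The quadriceps endothelial-like level was 29.5 times that of FAP-like cells (95% interval 21.8 to 39.4).

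Notch2 is a receptor with known roles in many tissues (chr3:98013527-98150361), and among the 5 classes its highest quadriceps levels were those of satellite-like and FAP-like cells. The quadriceps sums gave 123 CPM in satellite-like cells, 111 CPM in FAP-like cells, 75.8 CPM in smooth muscle-like cells, 66.4 CPM in immune-like cells and 29.6 CPM in endothelial-like cells. The satellite-like and FAP-like intervals overlapped, as did those of each of the 3 lower neighbours in this order. In diaphragm Notch2 was at 276 CPM (185 to 397) in satellite-like cells and between 84.1 and 95.3 CPM in smooth muscle-like, FAP-like and immune-like cells. No Notch2 UMI was found in the 9 endothelial-like cells of diaphragm, where the depth allowed up to 99.8 CPM.

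Notch3, the mural cell receptor (chr17:32120820-32166852), was highest in smooth muscle-like cells of both tissues. In quadriceps it reached 531 CPM (520 to 542, 8672 UMIs) in smooth muscle-like cells and 209 CPM (182 to 239) in satellite-like cells, and it stood between 4.12 and 6.48 CPM in the other 3 classes. The endothelial-like value was 1 UMI, and its log2 fold over FAP-like cells was 2.19 with classes from clusters, where it had been under 2-fold. The immune-like log2 fold was -1.25 under a limit of 5% mitochondrial UMIs. In diaphragm the smooth muscle-like and satellite-like levels were 688 CPM and 171 CPM, the FAP-like level was 2.17 CPM, and 0 UMIs were found in endothelial-like and immune-like cells. A Notch3 UMI was present in 1125 of 1162 smooth muscle-like cells of quadriceps and 44 of the 45 of diaphragm.

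The satellite-like level of Notch3 was set beside free smooth muscle RNA. Summed over the 8 smooth muscle markers, satellite-like cells of quadriceps held 1.63% of the smooth muscle-like level, whereas Notch3 stood at 39.3% of it. In FAP-like cells the corresponding values were 0.356% for the markers and 1.22% for Notch3, and in immune-like cells they were 0.661% and 0.776%. The 8 markers also defined the classes. A cell with UMIs of 5 or more of them could not count as satellite-like, FAP-like or immune-like. Their level in those classes was thus limited by the rule, and the part of free RNA in the Notch3 levels was not tested. After each cell was thinned to 1000 UMIs, 38.6% of smooth muscle-like cells (35.8 to 41.5, exact binomial), 21.5% of satellite-like cells (15.8 to 28.1) and 0.649% of FAP-like cells carried a Notch3 UMI, against 96.8%, 59.1% and 4.99% before thinning. After thinning 0 of 54 endothelial-like cells carried one, which allows up to 5.56%, and immune-like cells had 0.205%.

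Notch4, a receptor of endothelium (chr17:34564268-34588503), had its highest level in the endothelial-like cells of quadriceps. It was at 136 CPM (86.4 to 205) there from 23 UMIs in 16 of 54 cells. The other 4 classes of that library lay between 0.585 and 1.83 CPM, from 16 UMIs in smooth muscle-like, 15 in FAP-like, 4 in immune-like and 1 in satellite-like cells. The endothelial-like level was 233 times the FAP-like level (116 to 480). In diaphragm the 9 endothelial-like cells held 0 UMIs, a count that allows up to 99.8 CPM, and FAP-like cells held 29 UMIs at 1.09 CPM.

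Dll1, a Delta-like ligand with known roles in muscle progenitors and arteries (chr17:15367354-15376872), was highest in endothelial-like cells and came next in satellite-like cells. The quadriceps levels were 219 CPM (154 to 302, 37 UMIs) in endothelial-like cells and 13.7 CPM (7.50 to 23.0, 14 UMIs in 9 of 186 cells) in satellite-like cells, with at most 0.916 CPM elsewhere. Satellite-like cells were 58.6 times above FAP-like cells, with a counting interval from 21.2 to 186 that reflects only 6 UMIs in FAP-like cells. In diaphragm no satellite-like or endothelial-like cell carried a Dll1 UMI, smooth muscle-like cells held 2 UMIs and FAP-like cells 42.

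Dll4, the endothelial ligand of sprouting and arterial vessels (chr2:119325784-119335962), lay mostly in endothelial-like cells. In quadriceps 37 of its 41 UMIs lay in endothelial-like cells, at 219 CPM (154 to 302) and in 22 of 54 cells. The remaining 4 UMIs were spread over smooth muscle-like, FAP-like and immune-like cells, and satellite-like cells held 0, which allows up to 2.94 CPM. In diaphragm 3 of the 4 UMIs lay in 3 of the 9 endothelial-like cells, a level of 99.8 CPM (20.6 to 292).

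Jag1, a Jagged ligand of endothelium and mural cells (chr2:137081456-137116644), was shared by both vascular classes of quadriceps. Endothelial-like cells stood at 367 CPM (282 to 471) and smooth muscle-like cells at 303 CPM (295 to 312), and their intervals overlapped. FAP-like cells followed at 54.4 CPM and satellite-like cells at 47.0 CPM, again with overlapping intervals, and immune-like cells were last at 3.21 CPM. In diaphragm smooth muscle-like cells were at 268 CPM, satellite-like cells at 105 CPM, FAP-like cells at 39.9 CPM and immune-like cells at 14.6 CPM, while endothelial-like cells held 0 UMIs.

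Hes1, a target that also responds to signals other than Notch (chr16:30064384-30067796), was found in every class. In quadriceps smooth muscle-like cells stood at 260 CPM, satellite-like cells at 233 CPM and endothelial-like cells at 184 CPM, with overlapping intervals between neighbours, followed by FAP-like cells at 84.9 CPM and immune-like cells at 61.4 CPM. In diaphragm the smooth muscle-like level was 1266 CPM (1168 to 1369), the endothelial-like level 831 CPM (538 to 1227), the satellite-like level 286 CPM, the FAP-like level 102 CPM and the immune-like level 32.5 CPM. The endothelial-like difference from FAP-like cells in quadriceps, a log2 fold of 1.10, lay under 2-fold with stricter markers (0.98), with a mean of CPM over cells (0.91) and under a limit of 5% mitochondrial UMIs (0.94). Small sums leaned on 1 cell. Without the cell that held the most Hes1 UMIs, the diaphragm endothelial-like level was 534 CPM and the satellite-like level 174 CPM.

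Hey1 and Heyl are sister repressors of the HEY family, and their highest levels lay in different classes. Hey1 (chr3:8663359-8667256) was at 178 CPM (120 to 254) in endothelial-like and 51.9 CPM (38.9 to 67.9) in satellite-like cells of quadriceps, and at 6.25, 3.94 and 0.458 CPM in smooth muscle-like, FAP-like and immune-like cells. Heyl (chr4:123233556-123249875) was at 225 CPM (197 to 256) in satellite-like and 128 CPM (122 to 133) in smooth muscle-like cells, at 8.08 CPM in FAP-like cells and at 5.93 CPM, 1 UMI, in endothelial-like cells. Hey1 in smooth muscle-like cells was thus far below its endothelial-like level. Heyl in endothelial-like cells was far below its satellite-like level, and satellite-like cells held both genes.

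In diaphragm the order of Heyl was the same, with 162 CPM in satellite-like, 60.9 CPM in smooth muscle-like and 25.1 CPM in FAP-like cells and 0 UMIs in the other classes. Hey1 rested on 2 to 4 UMIs in each diaphragm class other than FAP-like cells, which held 156 UMIs at 5.85 CPM. The endothelial-like value of 66.5 CPM came from 2 UMIs in 1 cell.

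Counts in diaphragm were read with its small classes in mind. Satellite-like cells had 7 members higher than FAP-like cells of 9 with enough UMIs (12.3% of all genes), all but Notch4, Dll1 and Dll4, and the 2 counted as lower (44.9% of all genes), Notch4 and Dll1, had 0 UMIs and intervals of the ratio that include 1. The log2 fold of Jag1 in satellite-like cells was 0.75 under a limit of 5% mitochondrial UMIs. Smooth muscle-like cells had the same 5 members higher as in quadriceps (10.7% of all genes) and Notch4 counted as lower (36.3%), also at 0 UMIs with an interval that includes 1. Endothelial-like cells had 3 higher, Notch1, Hes1 and Hey1 (19.5%), and all 6 counted as lower (54.6%) were at 0 UMIs with intervals that include 1, so a lower level was not detectable at this depth. Immune-like cells had 1 higher, Notch1 (14%), and 6 lower (35.5%), of which Jag1, Hes1 and Heyl had intervals below 1 and Notch3, Notch4 and Dll1 did not.

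Satellite-like and smooth muscle-like cells of quadriceps, which both carry Notch3 and Heyl, were compared directly. Smooth muscle-like cells were higher by at least 2-fold in 2 of 8 members with enough UMIs (16.8% of all genes), Notch3 with a ratio of 2.55 (2.22 to 2.93) and Jag1 with a ratio of 6.45 (4.85 to 8.75). They were lower in 2 of 8 (23.3%), so the counts lay near those of all genes, Hey1 with a ratio of 0.120 (0.0855 to 0.171) and Dll1 with a ratio of 0.0357 (0.0130 to 0.0913). The Dll1 ratio rested on 8 UMIs in smooth muscle-like and 14 in satellite-like cells. The Hes1 ratio was 1.11 (0.977 to 1.27) and that of Heyl was 0.566 (0.494 to 0.652).

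Endothelial-like cells were also compared with smooth muscle-like cells in quadriceps. Of the receptors, Notch1 and Notch4 were higher and Notch2 and Notch3 lower in endothelial-like cells, of the ligands, Dll1 and Dll4 were higher, and of the targets, Hey1 was higher and Heyl lower. Together 5 of 10 members were higher (30% of all genes) and 3 lower (25.4%). Dll4, Dll1 and Notch4 passed the minimum of UMIs only through endothelial-like cells, with 2, 8 and 16 UMIs in smooth muscle-like cells. The Notch3 ratio was 0.0112 (0.000282 to 0.0622), the Heyl ratio 0.0464 and the Hey1 ratio 28.5 (18.3 to 43.1). Jag1 differed by a ratio of 1.21 (0.928 to 1.56).

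The 54 endothelial-like cells of quadriceps were not uniform. After their values had been seen, they were split by 4 genes of lymphatic endothelium, Mmrn1, Lyve1, Prox1 and Flt4, into 19 cells with UMIs of at least 2 of them and 35 with fewer. Notch1 was at 371 CPM (244 to 539) in the 19 cells and 302 CPM (203 to 434) in the 35, with overlapping intervals. Jag1 at 594 against 68.6 CPM, Dll1 at 344 against 54.9 CPM and Notch4 at 219 against 27.4 CPM were higher in the 35 cells, with intervals apart. Hey1 was at 250 CPM (160 to 372) and 82.3 CPM (30.2 to 179), with overlapping intervals.

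All 5 Notch2 UMIs lay in the 19 cells. Dll4 was at 282 CPM (186 to 410) and 137 CPM (65.8 to 252) in the 35 and the 19 cells, with overlapping intervals. Hes1 went the other way, at 73.0 CPM (29.4 to 150) in the 35 cells and 329 CPM (211 to 490) in the 19. Of genes outside the set, the ligand Jag2 (282 against 13.7 CPM) and the feedback inhibitor Nrarp (334 against 41.2 CPM) were higher in the 35 cells. In diaphragm the endothelial-like sum had Lyve1 at 2660 CPM, Flt4 at 698 CPM and Prox1 at 565 CPM against 1108, 367 and 190 CPM in quadriceps, whereas Mmrn1 was at 2427 and 2519 CPM. Their part in the absence of Jag1, Dll1 and Notch4 UMIs from the endothelial-like cells of diaphragm was not tested.

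**Figure D2:**
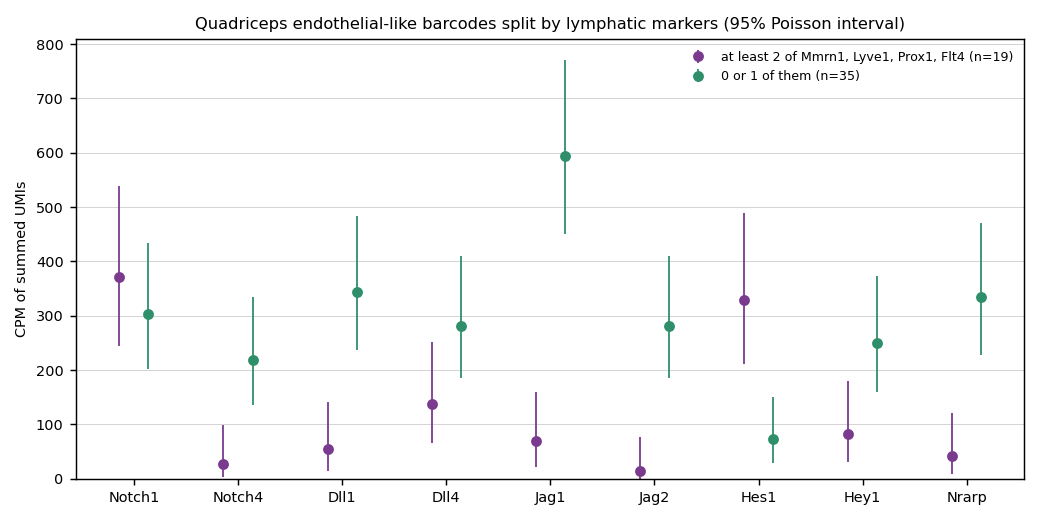
Levels of 7 members and of Jag2 and Nrarp in quadriceps endothelial-like cells with UMIs of at least 2 of 4 lymphatic genes (19 cells, purple) and with 0 or 1 of them (35 cells, green), as CPM with 95% Poisson intervals. Jag1 stood at 594 CPM in the 35 cells and 68.6 CPM in the 19, Hes1 at 73.0 and 329 CPM, and the Notch1 intervals overlapped.

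FAP-like cells were compared between tissues over 2466 and 2162 cells, the only class with large numbers in both. Of 9 members with at least 20 UMIs, 2 were at least 2-fold higher in diaphragm (3.38% of all genes) and 1 was lower (3.47%). Heyl went from 8.08 to 25.1 CPM, a ratio of 3.11 (2.66 to 3.65), with a UMI in 146 of 2466 and 421 of 2162 cells. Clusters found separately in each tissue differed in Heyl, which was under 5 CPM in clusters with 24.8%, 13.7% and 11.7% of quadriceps FAP-like cells and in 1 cluster with 17.7% of those of diaphragm. The part of cluster make-up in the Heyl difference was not tested. Dll1 went from 0.234 to 1.57 CPM, a ratio of 6.73 (2.85 to 19.4) that rests on 6 and 42 UMIs. With a pseudocount of 5 CPM, Dll1 and Notch3 were no longer past 2-fold, with log2 folds of 0.33 and -0.68, and under a limit of 5% mitochondrial UMIs the log2 fold of Dll1 was 0.92.

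Notch3 went from 6.48 to 2.17 CPM in FAP-like cells, a ratio of 0.336 (0.245 to 0.455). The summed level of the 8 smooth muscle markers in the same cells went from 204 to 39.2 CPM, and its part in the Notch3 difference was not tested. The other 6 members had ratios between 0.733 for Jag1 and 1.86 for Notch4, and among them Hes1 was at 1.20 (1.13 to 1.27) and Notch2 at 0.770 (0.728 to 0.814). Immediate early genes, a list of 8 that includes Fos and Egr1, summed to 1941 CPM in quadriceps and 12565 CPM in diaphragm FAP-like cells, and their part in these differences was not tested.

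**Figure D3:**
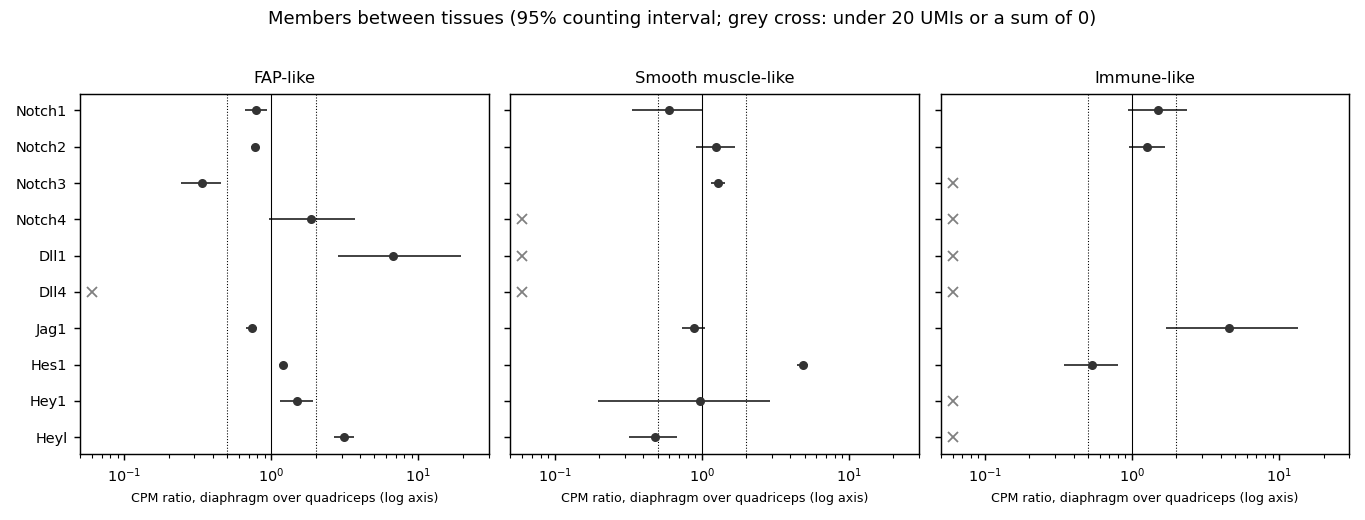
Ratio of CPM in diaphragm over quadriceps for each member in FAP-like, smooth muscle-like and immune-like cells, on a log axis with 95% counting intervals. The solid line marks a ratio of 1, dotted lines mark 2-fold, and grey crosses mark members with under 20 UMIs or a sum of 0. Heyl stood at 3.11 in FAP-like and 0.477 in smooth muscle-like cells, and Hes1 at 4.88 in smooth muscle-like cells.

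Members also varied within FAP-like cells. The clusters described here were found with the genes of the same cells, so the values are a description, and each cluster is called by its leading genes. In quadriceps Heyl was highest in the cluster led by Cxcl14, Hsd11b1 and Mme, at 28.0 CPM (22.2 to 34.9, 314 cells), and it was at 0.290 CPM, 1 UMI, in the cluster led by Dmkn, Sbsn and Krtdap (289 cells). Hes1 had the same ends, at 145 and 20.9 CPM. Notch1 ran along with them, at 26.2 and 1.74 CPM.

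Jag1 and Notch2 were highest in the cluster with the least Heyl in quadriceps. Jag1 was at 127 CPM (116 to 140) in the Dmkn cluster and 96.2 CPM in the cluster led by Stmn4, Fam167a and Cmah, and between 29.3 and 37.2 CPM in the other 3. Notch2 was at 183 and 171 CPM in those clusters and between 77.5 and 94.4 CPM elsewhere. Hey1 was highest in the cluster led by Gdf10, Mgp and Meox1, at 8.18 CPM. This cluster held 73 of the 101 Hey1 UMIs of FAP-like cells, in 50 cells, and 36.2% of the FAP-like cells. Of the 101 UMIs, 13 lay in 1 cell.

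The diaphragm clusters were found separately. Heyl was at 46.0 CPM (39.4 to 53.5) in the cluster led by Cxcl14, Kcnk2 and P2ry1 and at 4.01 CPM in the cluster led by Cmah, Sbsn and Efhd1, while Jag1 and Notch2 were highest in the latter at 66.5 and 122 CPM. Hes1 was highest in the cluster led by Thbs1, Inhba and Ccl11, at 162 CPM, where Heyl was at 35.5 CPM. It was at 109 CPM in the Cxcl14 cluster, at 89.2 CPM in the Cmah cluster and between 84.1 and 97.2 CPM elsewhere. The immediate early sum of the Thbs1 cluster was 19404 CPM, and its part in the Hes1 level was not tested. Of the 42 Dll1 UMIs, 19 lay in the cluster led by Sfrp2, Tnmd and C1qtnf3.

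**Figure D4:**
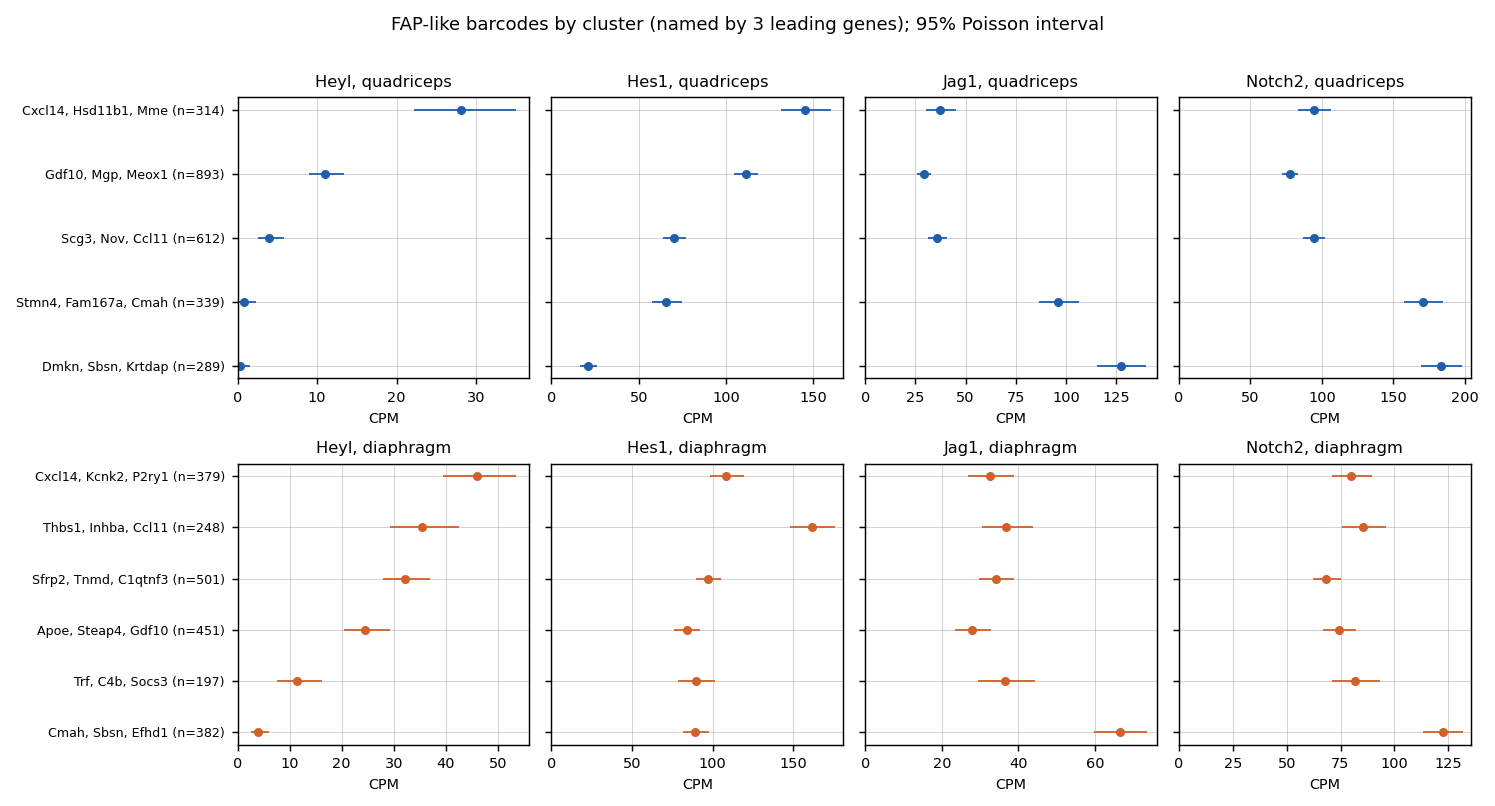
Heyl, Hes1, Jag1 and Notch2 in FAP-like cells by cluster, with quadriceps in the upper row and diaphragm in the lower row, as CPM with 95% Poisson intervals. Clusters are named by 3 leading genes with their number of cells and are ordered by Heyl, with the few FAP-like cells of other clusters left out, and Jag1 and Notch2 were highest in the cluster with the lowest Heyl level in both tissues.

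Smooth muscle-like cells of diaphragm numbered 45, under the 50 set for a count between tissues, and their values are given side by side. Hes1 was at 260 CPM in quadriceps and 1266 CPM in diaphragm, a ratio of 4.88 (4.48 to 5.30), and a Hes1 UMI was present in 811 of 1162 and 40 of 45 cells. Heyl went from 128 to 60.9 CPM, a ratio of 0.477 (0.321 to 0.683), and Notch3 from 531 to 688 CPM, a ratio of 1.29 (1.16 to 1.44). Notch1, at 50.5 and 30.4 CPM, and Jag1, Notch2 and Hey1 had intervals that include 1. The immediate early sum in smooth muscle-like cells was 2792 CPM in quadriceps and 15144 CPM in diaphragm, and its part in the Hes1 difference was not tested.

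In satellite-like cells, 18 in diaphragm, the members with at least 20 UMIs over both tissues had ratios of diaphragm over quadriceps between 0.718 for Heyl and 2.24 for Notch2. The intervals excluded 1 for Notch1 at 2.09 (1.08 to 3.77), Notch2 at 2.24 (1.44 to 3.37) and Jag1 at 2.23 (1.04 to 4.35). Of the 11 Jag1 UMIs in diaphragm 4 lay in 1 cell, and of the 14 Notch1 UMIs also 4. Without the cell that held the most UMIs of the gene, taken for each gene on its own, the diaphragm level was 70.7 CPM for Jag1 and 98.5 CPM for Notch1. Notch3, Hes1, Hey1 and Heyl had intervals that include 1. The immediate early sum in these cells was 13587 CPM in quadriceps and 36113 CPM in diaphragm.

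Immune-like cells held few UMIs of most members, and 4 had at least 20 over both tissues. Of these, 1 was at least 2-fold higher in diaphragm (4.66% of all genes) and 0 were lower (8.22%). Jag1 was at 3.21 CPM (7 UMIs) in quadriceps and 14.6 CPM (13 UMIs) in diaphragm, a ratio of 4.55 (1.69 to 13.5), and 12 of the 13 lay in the 56 T cell-like barcodes. Hes1 was at 61.4 and 32.5 CPM, a ratio of 0.530 (0.341 to 0.796).

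Within immune-like cells of quadriceps Notch2 was highest in B cell-like and myeloid-like cells. It was at 90.4 CPM (68.7 to 117) in 203 B cell-like and 94.1 CPM (70.7 to 123) in 73 myeloid-like barcodes. It was at 40.2 CPM (20.1 to 72.0) in 73 NK cell-like and 20.4 CPM (10.2 to 36.5) in 103 T cell-like barcodes. The NK cell-like interval overlapped those of B cell-like and myeloid-like cells. In diaphragm the B cell-like and T cell-like levels were 102 CPM (65.7 to 150) and 48.6 CPM (27.8 to 79.0), with overlapping intervals. Hes1 was at 92.0 CPM in B cell-like, 84.1 CPM in NK cell-like and 81.9 CPM in myeloid-like cells of quadriceps, with overlapping intervals. It was at 7.42 CPM in T cell-like cells. In diaphragm Hes1 was at 48.7 CPM in B cell-like cells and had 0 UMIs in T cell-like cells. Notch1 was lowest in B cell-like cells of quadriceps, at 6.24 CPM against 24.1 to 40.2 CPM in the other 3.

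The rest of the pathway was read from a list of 47 genes, and Nrarp, a feedback inhibitor that Notch itself switches on, followed the vascular classes. It stood at 202 CPM in smooth muscle-like and 207 CPM in endothelial-like cells of quadriceps and at 2.94 CPM in satellite-like cells, and at 274 CPM in smooth muscle-like cells of diaphragm. Hey2, another HEY repressor known from arteries, was at 65.1 CPM in smooth muscle-like and 23.7 CPM in endothelial-like cells of quadriceps. Neurl1b, which acts in ligand endocytosis, was at 61.4 CPM in smooth muscle-like cells, with the next class at 7.84 CPM.

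Other pathway genes were highest in a single class of quadriceps, by at least 2-fold over the next class, though several were present in other classes as well. Dtx4, of the Deltex family of ubiquitin ligases, was at 235 CPM in satellite-like and 33.2 CPM in FAP-like cells. Jag2, a ligand, was at 166 CPM in endothelial-like cells and at most 0.980 CPM elsewhere, and Adam10, the protease that cuts the receptor outside the membrane, was at 207 CPM there against 52.4 CPM in FAP-like cells. Neurl3 was at 186 CPM in immune-like cells, with the next class at 0.156 CPM. Lfng, a Fringe enzyme that adds sugars to the receptor, was at 39.4 CPM there against 17.8 CPM (3 UMIs) in endothelial-like cells. Numbl, related to the inhibitor Numb, was highest in FAP-like cells at 52.1 CPM, with satellite-like cells next at 14.7 CPM.

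Counts over the list stood beside those of all genes. Against FAP-like cells of quadriceps, 4 list genes were higher and 5 lower of 36 with enough UMIs in satellite-like cells, 3 and 14 of 39 in smooth muscle-like cells, 10 and 10 of 38 in endothelial-like cells, and 8 and 16 of 40 in immune-like cells. Over all genes 10.4% were higher and 22.1% lower in satellite-like, 11.2% and 28.6% in smooth muscle-like, 18% and 30.2% in endothelial-like and 14.5% and 32.6% in immune-like cells. The median log2 differences of the list were -0.30, -0.50, 0.05 and -0.56, beside -0.10, -0.45, -0.12 and -0.36 over all genes tested. Rbpj, the DNA-binding partner of all 4 receptors, was highest in FAP-like cells of quadriceps, at 121 CPM. It was at 64.6 CPM in satellite-like, 49.0 CPM in immune-like, 35.9 CPM in smooth muscle-like and 35.6 CPM in endothelial-like cells. This order did not hold in diaphragm. There Rbpj was at 119 CPM in immune-like, 85.7 CPM (9 UMIs) in satellite-like and 77.9 CPM in FAP-like cells. It was at 66.5 CPM (2 UMIs) in endothelial-like and 32.5 CPM in smooth muscle-like cells.

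In diaphragm the list had 5 genes higher and 16 lower of 38 in satellite-like cells, 4 and 16 of 40 in smooth muscle-like cells, 12 and 13 of 38 in endothelial-like cells and 7 and 17 of 39 in immune-like cells. Over all genes 12.3% were higher and 44.9% lower in satellite-like, 10.7% and 36.3% in smooth muscle-like, 19.5% and 54.6% in endothelial-like and 14% and 35.5% in immune-like cells. The median log2 differences of the list were -0.48, -0.57, -0.11 and -0.42, beside -0.81, -0.55, -1.30 and -0.44 over all genes tested. Between tissues 1 of 41 list genes, Neurl3, was higher in diaphragm FAP-like cells and 0 were lower (3.38% and 3.47% of all genes). In immune-like cells 3 of 33 were higher and 4 lower (4.66% and 8.22% of all genes), among them Rbpj at 119 against 49.0 CPM and Nrarp at 2.24 against 22.0 CPM.

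Genes with profiles most like each member were ranked by Pearson r of log2(CPM + 1) over the 10 class and tissue sums, among 12459 genes. The points share libraries and differ in depth, so r is a description. Itga7, Kcnma1 and Rcan2 were nearest to Notch3 (r = 0.97, 0.97 and 0.96), Dmd, Garem and Slc7a2 to Heyl (0.95 for each), Adcy6, Ipo13 and Akap1 to Jag1 (0.97, 0.96 and 0.96), and Tanc2, Cyb5r1 and Klhl12 to Hey1 (0.98, 0.96 and 0.93). Naa50, Hspb11 and Ndrg3 were nearest to Notch2 (0.98 for each), Tmem199, Fbrsl1 and Myo18a to Notch1 (0.95, 0.94 and 0.93), Kpna6, Cstf3 and Otud1 to Hes1 (0.92, 0.90 and 0.90), and Shroom4, Arglu1 and Unc45b to Dll1 (0.91, 0.89 and 0.89). Notch4 and Dll4 had under 100 UMIs over these sums and were not ranked. With quadriceps sums alone 0 of these 24 genes stayed among the nearest 3, and with Spearman rho 2 did.

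Members found together in the same cell were counted within a class. In the 1162 smooth muscle-like cells of quadriceps, Notch3 and Heyl UMIs were found together in 826 cells, where independent presence would give 811, and Notch3 and Jag1 in 1026, where it would give 1014. In 186 satellite-like cells Notch3 and Heyl were together in 76 cells against 72.7. These counts share the depth of each cell.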

How the data were processed

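Single-cell libraries of quadriceps and diaphragm were each read as raw counts. The deposited counts were UMIs per gene and barcode for 27998 genes, made by the authors with Cell Ranger 3.0.0 on mm10 per the labels, and the barcodes were those their cell calling kept. The tables held 5159 and 2499 barcodes, of which 5010 and 2430 had at least 1000 UMIs and stayed under an upper limit, which lay 3 scaled median absolute deviations above the median log10 UMI count. No mitochondrial limit was set, since 1157 of 1162 smooth muscle-like barcodes of quadriceps exceeded 5%.

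A class needed UMIs of at least 3 of 8 satellite, 5 of 8 smooth muscle, 4 of 9 endothelial, 6 of 8 FAP or 4 of 8 immune markers, and barcodes that passed Schwann cell (4 of 8) or tenocyte (4 of 6) lists or several lists were left out. Levels in the Schwann cell class are not reported here. Of kept barcodes, 4355 and 2379 fell in the 5 classes, 230 and 5 passed several lists and 227 and 44 passed none. Scrublet marked 95 and 3 barcodes (1.84% and 0.120%) as doublets and was used as an alternative only. In diaphragm it marked too few to count as having worked.

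Levels were CPM of class sums with exact Poisson intervals, ratios had exact conditional intervals, and shares had exact binomial intervals after thinning to 1000 UMIs. Folds were taken on CPM + 1, so they understate the change of low genes. Genes named were the 10 members, the 3 genes most like each, and up to 3 pathway genes per class with the largest fold over the next class. Nrarp and Rbpj were named outside this rule, with their values known. Members and lists were chosen with earlier results of these data known. The scripts were tested on simulated data. Gene positions came from GENCODE M21 on GRCm38 and promoters from RefSeq (GRCm38.p6). Python 3.11.15, Scanpy 1.11.5, scipy 1.17.1 and numpy 2.4.6 were used. Alternatives comprised a 5% mitochondrial limit, no UMI limits, Leiden cluster classes, stricter markers, removal of doublets, other scalings and other minimum counts. The split of endothelial-like cells, the levels by cluster and the levels without the barcode that held the most UMIs were chosen after seeing the data.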

Additional observations from a re-analysis of the deposited data

Results flagged for a closer look

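Heyl moved in opposite directions between the tissues in 2 classes. In FAP-like cells the diaphragm level was 3.11 times the quadriceps level (2.66 to 3.65, 207 and 670 UMIs), a log2 fold of 1.52, and in smooth muscle-like cells it was lower, with a ratio of 0.477 (0.321 to 0.683, 2083 and 30 UMIs) and a log2 fold of -1.06. The log2 folds differ by 2.58. The difference was not tested, since each tissue has 1 library, and the smooth muscle-like sum of diaphragm rests on 45 barcodes.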

How the results depend on the processing

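Of 176 counts recomputed under other settings, 162 stayed within 1.5 times the value reported, and of 656 recomputed log2 folds of members 12 went from past to under 2-fold and 5 from under to past. Of the 423 whose reported value was past 2-fold, 0 changed sign. Dropping the minimum of UMIs or raising it to 100 cannot change a log2 fold. The 69 folds compared under each of these settings were therefore the same in advance. Members with 0 UMIs in the class, or in diaphragm for a comparison between tissues, were not among the 656. With at most 5% mitochondrial UMIs, which left 5 smooth muscle-like, 10 endothelial-like and 21 satellite-like barcodes in quadriceps, the members higher than in FAP-like cells numbered 2 in smooth muscle-like and 3 in endothelial-like cells, and the pathway genes past 2-fold numbered 30 in smooth muscle-like and 17 in satellite-like cells. With a pseudocount of 5 CPM the members higher in immune-like cells of quadriceps numbered 0, the members past 2-fold between tissues in FAP-like cells numbered 1, and the pathway genes past 2-fold in quadriceps numbered 5 in satellite-like and 11 in smooth muscle-like cells. In immune-like cells the members past 2-fold between tissues numbered 2 with classes from clusters, 5 with no minimum of UMIs and 0 with at least 100 UMIs. With at least 100 UMIs the members higher in endothelial-like cells of quadriceps numbered 4. Of 24 likeness genes, 0 were kept with quadriceps sums only and 2 with Spearman rho. The causes were not tested beyond the fewer barcodes or genes that each limit leaves. No paired analysis was possible because each tissue has 1 library. Leaving out a replicate was not possible for the same reason, and clusters gave no satellite-like or endothelial-like class in diaphragm. Scaling without mitochondrial UMIs moved the median log2 difference of all genes between smooth muscle-like and FAP-like cells to -0.24 (quadriceps, -0.45 before) and to -0.29 (diaphragm, -0.55 before). Depth limits the small classes of diaphragm, and 3 counts among its 9 endothelial-like barcodes correspond to 99.8 CPM.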

Other observations

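A class outside the comparisons was the 41 tenocyte-like barcodes of quadriceps, in which Notch2 was at 138 CPM and Hes1 at 54.0 CPM. Notch1, Notch4, Dll1 and Dll4 had 0 UMIs there, where 3 counts correspond to 10.1 CPM. Notch4, Dll1 and Dll4 lay below that level in FAP-like cells of quadriceps as well.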
